A study of Mus musculus with 2 samples.

Results

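The genes described here are 10 mouse noncoding genes that carry small nucleolar RNAs (snoRNAs) in their introns: Gas5, Snhg1, Snhg3, Snhg4, Snhg5, Snhg6, Snhg8, Snhg12, Snhg15 and Snhg16. They were taken by name from the 55536 annotated genes of the gene tables. Gene names in the tables matched 8 of them. The entry 1810032O08Rik was matched to Snhg16 through a RefSeq synonym, and the entry AC121821.1 (ENSMUSG00000117869.1) to Snhg4 through a RefSeq transcript. RNA depleted of ribosomal RNA was prepared from the nucleoplasm of C57BL/6J bone-marrow-derived macrophages, which are phagocytes grown from marrow in culture. The cells had received lipid A, the TLR4-binding part of lipopolysaccharide, at 100 ng/ml for 12 h, then a 12 h washout, then 100 ng/ml again for 25 min. The 2 libraries, biological replicates 1 and 2, form 1 group with the same treatment, so the values show no response to lipid A. Their donor entries are the same, nothing says that the cultures were separate, and the sex and age of the mice are not given. The starting amount of RNA was 500 ng for replicate 1 and 1 µg for replicate 2, and replicate and starting amount cannot be told apart.

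A snoRNA guides the chemical modification or the cutting of ribosomal RNA and related RNAs in the nucleus. Box C/D snoRNAs guide ribose methylation and box H/ACA snoRNAs guide pseudouridylation, each in a complex with its own core proteins. In mammals most snoRNAs are trimmed out of spliced introns, so a host gene yields a spliced RNA from its exons and snoRNAs from its introns. The spliced RNA of many noncoding hosts has only short reading frames and, once in the cytoplasm, is a known substrate of nonsense-mediated decay, the pathway that removes RNAs on which translation stops early.

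The libraries held 20196408 and 19588980 expected counts, and 14596 genes had at least 10 in each, which is called detected below. Of the markers listed for macrophages, 6 of 6 were above 1 TPM (a deposited level per length, scaled to a fixed total) in each library, and their medians were 348 and 285 TPM. The T cell, B cell, neutrophil, erythroid and stromal markers, 14 genes in all, reached at most 0.300 TPM. The median detected gene had a log2 ratio of replicate 2 over replicate 1 of -0.27 on the TPM scale, and ratios below are also given relative to it. Spreads measure only these 2 libraries and may be technical.

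All 10 host genes were above 1 TPM in both libraries, as were 22.4% of all genes and 9.98% of long noncoding genes. Summed over the hosts, replicate 1 had 201 and replicate 2 had 149 TPM. Their share of all expected counts was 0.0120% in replicate 1, with a 95% Wilson interval of 0.0115 to 0.0125%. In replicate 2 the share was 0.0101%, with an interval of 0.00963 to 0.0105%. Gas5 alone made up 47.7% of the summed host TPM in replicate 1 and 42.4% in replicate 2. In bulk RNA a lower share of cells that express a gene and less of its RNA per cell cannot be told apart.

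**Figure D1:**
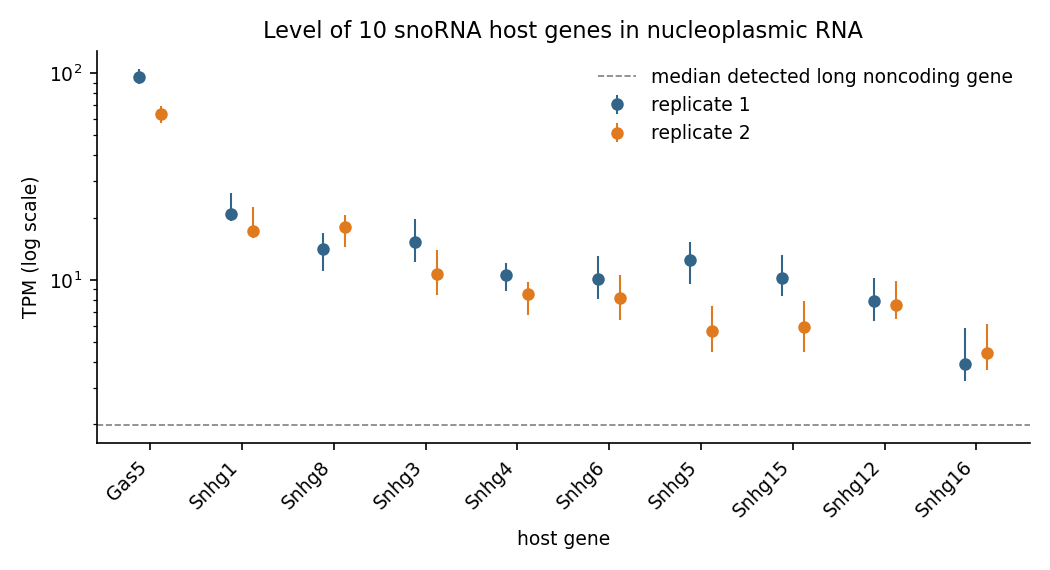
Level of each host gene (TPM, log scale) in replicates 1 and 2, ordered by the mean. Points are deposited TPM values, bars the TPM interval deposited beside them, and the dashed line the mean over the libraries of the median of detected long noncoding genes. Gas5 lies above every other host in both libraries, and Snhg16 below every other host.

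Gas5 carries box C/D snoRNAs and takes its name from growth arrest, in which its spliced RNA accumulates. The gene (ENSMUSG00000053332.13) lies on the plus strand of chromosome 1, 161034422 to 161038539 (GRCm38). It had 96.1 TPM from 1192 expected counts in replicate 1 and 63.4 TPM from 846 in replicate 2, which is 79.7 ± 23.1 TPM (SD, n = 2). It ranked 22 by mean TPM among the 1423 detected long noncoding genes and lay above 95.2% of all detected genes. Its lower library, replicate 2, was still higher than either library of any other host in the set described here. The deposited intervals were 88.7 to 105 TPM in replicate 1 and 57.6 to 69.7 TPM in replicate 2, and they do not measure the spread between libraries. Gas5 overlaps 428 bases of Zbtb37 on the opposite strand, which had 8.58 and 6.07 TPM, and without a stated strand setting their reads cannot be told apart there.

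Snhg1 (ENSMUSG00000108414.1, chromosome 19, 8723475 to 8726443, plus strand), the host of U22 (Snord22) and other box C/D snoRNAs, was next by mean level. It had 20.9 TPM (377 counts) and 17.1 TPM (332 counts), on average 19.0 ± 2.66 TPM (SD, n = 2). Its start lies 105 bases from Slc3a2, a gene on the opposite strand that encodes the heavy chain of amino acid transporters and had 183 and 205 TPM. Snhg5 (ENSMUSG00000097195.9, chromosome 9, 88521050 to 88522929, minus strand), the host of the U50 snoRNAs, had 12.5 TPM (132 counts) and 5.68 TPM (82 counts). Snhg6 (ENSMUSG00000098234.7, chromosome 1, 9941959 to 9944118, minus strand), which holds Snord87, had 10.03 and 8.18 TPM. It overlaps 127 bases of Mcmdc2 on the opposite strand. Snhg16 (ENSMUSG00000020812.17, chromosome 11, 116671660 to 116675799, plus strand), which holds Snord1a, Snord1b and Snord1c, was the lowest host, with 3.90 and 4.44 TPM from 77.8 and 91.2 counts. It overlaps 497 bases of St6galnac2 on the opposite strand, at 0.740 and 0.540 TPM.

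Among the hosts of box H/ACA snoRNAs, Snhg8 (ENSMUSG00000104960.1, chromosome 3, 123507552 to 123508404, minus strand) had 14.1 TPM (105 counts) and 17.9 TPM (144 counts). Snhg3 (ENSMUSG00000085241.7, chromosome 4, 132348014 to 132353686, minus strand), the host of the U17 snoRNAs Snora73a and Snora73b, had 15.2 TPM (73.9 counts) and 10.7 TPM (67.3 counts). It shares 5592 bases with Rcc1 on the same strand, at 2.89 and 2.79 TPM, so reads can be split between them. Snhg4 (chromosome 18, 35553371 to 35558316, plus strand), which holds Snora74a, had 10.5 TPM (204 counts) and 8.53 TPM (168 counts). It shares 4913 bases with the protein-coding Gm28285 on the same strand, at 0.290 and 0.330 TPM, so there too reads can be split. Snhg15 (ENSMUSG00000085156.7, chromosome 11, 6525591 to 6528760, minus strand), which holds Snora9, had 10.2 TPM (80 counts) and 5.90 TPM (51.2 counts). Snhg12 (ENSMUSG00000086290.9, chromosome 4, 132308623 to 132311024, plus strand) holds snoRNAs named for both classes and had 7.86 TPM (91 counts) and 7.52 TPM (113 counts).

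By mean TPM the order was Gas5, Snhg1, Snhg8, Snhg3, Snhg4, Snhg6, Snhg5, Snhg15, Snhg12 and Snhg16. Between neighbours in that order the ranges of the 2 libraries were apart from Gas5 to Snhg1, from Snhg12 to Snhg16 and, narrowly, from Snhg3 to Snhg4 (10.7 against 10.5 TPM), and every other neighbouring pair overlapped. CPM values, which are counts scaled to the library and not divided by length, gave another order after Snhg1. On the TMM-normalised CPM scale Snhg4 came next, at 9.78 and 8.89 CPM, while Snhg3, whose transcripts are 332 to 581 bases long, was at 3.55 and 3.54 CPM.

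Between the libraries 8 of the 10 hosts had a log2 TPM ratio below 0, with 70.4% of detected genes below 0 as well. The median of the hosts was -0.29, or -0.02 relative to the median detected gene. Past 2-fold stood 1 host, Snhg5, at -1.12, where 9.41% of detected genes were past 2-fold in either direction and 7.26% lower in replicate 2. None was past 2-fold higher, as 2.16% of detected genes were. No host was past 2-fold relative to the median gene, where 7.30% of detected genes were. The ends of the range relative to the median gene were Snhg5, at -0.85, and Snhg8, at 0.61. Gas5 was at -0.33 and Snhg1 at -0.01. On the TMM-normalised CPM scale, with no division by length, Snhg5 had 6.33 and 4.34 CPM, a log2 ratio of -0.53. With 1 library of each starting amount these differences have no test.

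**Figure D2:**
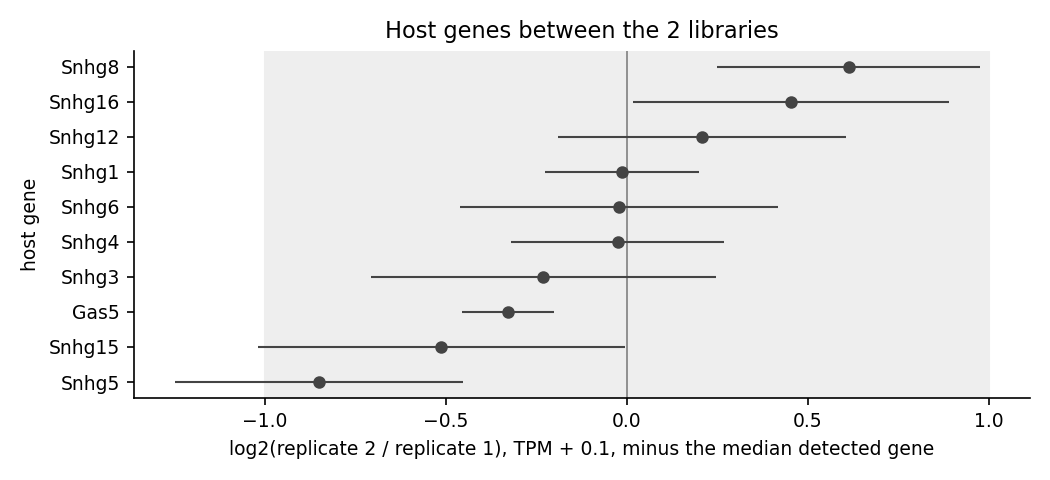
Log2 ratio of replicate 2 over replicate 1 on the TPM + 0.1 scale for each host gene, minus the ratio of the median detected gene. Bars are approximate 95% counting intervals and grey shading marks less than 2-fold. All 10 points lie inside the shading, from -0.85 for Snhg5 to 0.61 for Snhg8.

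The annotation gives the hosts 89 transcripts, of which 44 are classed as retained intron, meaning that an intron of another transcript is kept. Above 0 in both libraries were 48 transcripts, and 15 were at 0 in both. Retained-intron transcripts held 44.2% of the summed host TPM in replicate 1 and 42.0% in replicate 2. By expected counts, which grow with length, they held 65.4% and 60.3%. Snhg3, Snhg6, Snhg12 and Snhg15 have no transcript of this class, so an unspliced RNA of theirs cannot be counted as such.

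For the other 6 hosts the retained-intron share could be set beside the 6965 detected genes that have at least 1 transcript of each kind. It was above 50% of TPM in both libraries for 3 of 6 hosts, Gas5, Snhg1 and Snhg4, and for 12.4% of these genes. By expected counts it was above 50% for 4 of 6, the added host being Snhg8, and for 10.9% of genes. The median share of TPM over the 6 hosts was 51.9% in replicate 1 and 55.3% in replicate 2. Over all 6965 genes it was 25.1 and 26.3%, and over the 102 long noncoding genes among them 56.3 and 45.2%. By expected counts the medians were 73.8 and 74.3% for the hosts, 14.8 and 15.1% for all genes and 64.5 and 53.1% for the long noncoding genes. On both scales the hosts' median lay above that of all genes, and by counts it also exceeded that of long noncoding genes in both libraries.

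Gas5 had 59.2% of its TPM on retained-intron transcripts in replicate 1 and 58.2% in replicate 2. Of its 25 transcripts 20 are of this class, and 15 of these were above 0 in replicate 1 and 16 in replicate 2. None of the 20 reached 10% of the gene's TPM in either library. Its leading transcript was the spliced Gas5-224, 502 bases in 12 exons, with 36.3 and 19.4 TPM. Snhg1 had retained-intron shares of 62.9 and 52.4%. Its spliced transcript Snhg1-211 (605 bases, 10 exons) had 7.75 and 6.68 TPM. The kallisto-layout tables, made from the reads by a separate estimate, gave Snhg1-211 0 in both libraries and gave 5.57 and 2.90 TPM to the spliced Snhg1-207 (709 bases, 9 exons), so which spliced form was present is not settled. Snhg1-215, 2728 bases in 2 exons and nearly as long as the gene, had 4.20 and 2.67 TPM, yet 55.4 and 44.4% of the gene's expected counts. In the kallisto-layout tables the TPM share of Snhg1 was 55.4% in replicate 1 but 26.6% in replicate 2. Snhg4 had the highest shares of the hosts, 81.0 and 86.2%, and its only other transcript, Snhg4-201, had 1.99 and 1.18 TPM.

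Snhg8 had 44.7 and 31.8% of its TPM on Snhg8-202, which is 1 exon of 776 bases with nothing spliced out, at 6.31 and 5.69 TPM. The spliced Snhg8-201 (448 bases, 3 exons) had 7.81 and 11.6 TPM, so the gap between the libraries lay mainly in the spliced form. Snhg5 was the least repeatable, with 26.0% in replicate 1 and 64.1% in replicate 2. Its spliced Snhg5-203 (440 bases, 2 exons) had 5.60 TPM from 24.5 counts in replicate 1 and 0.820 TPM from 4.54 counts in replicate 2. The kallisto-layout tables gave Snhg5-203 0.806 and 0.00298 TPM and Snhg5-201 2.43 and 0.140 TPM, so the leading form is not settled. The retained-intron shares of Snhg5 there were 36.4 and 69.3%. Snhg16 had 21.5 and 3.83% on its retained-intron transcript, from 5 and 1.20 counts, too few to fix a share. Among the hosts without such a transcript, Snhg3-204 (437 bases, 3 exons) took 76.2 and 73.4% of Snhg3's TPM and Snhg12-206 (606 bases, 5 exons) 46.7 and 58.2% of Snhg12's. Snhg6-205 (816 bases, 3 exons) took 59.1 and 42.9% of Snhg6's, and Snhg15-204 (592 bases, 4 exons) 40.4 and 27.6% of Snhg15's. In replicate 2 Snhg6-203 was close behind at 42.1%, and Snhg15-202 equalled Snhg15-204 at 1.63 TPM. The kallisto-layout tables gave Snhg15-202 4.75 and 0.469 TPM and Snhg15-204 3.12 and 0.213 TPM. Which form of Snhg15 led is thus not settled.

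**Figure D3:**
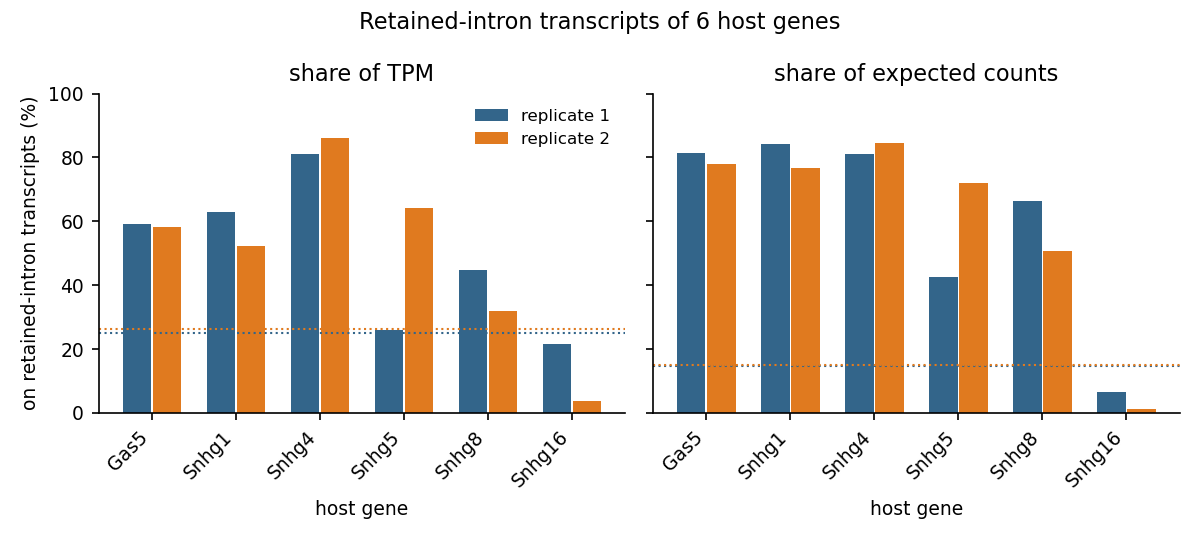
Share of each host gene's TPM (left) and expected counts (right) on retained-intron transcripts, in percent, for replicates 1 and 2. Dotted lines are the medians of 6965 genes in each library. Gas5, Snhg1 and Snhg4 lie above 50% in every bar, while Snhg5 differs most between the libraries in both panels.

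The hosts hold 35 annotated snoRNA genes on their own strand, 33 by distinct name within a host, since Snord80 and Snora16a each have overlapping entries: Gas5 has 10, Snhg1 8, Snhg12 5, Snhg16 3, Snhg3, Snhg4 and Snhg5 2 each, and Snhg6, Snhg8 and Snhg15 1 each. All 35 lie in introns. The 33 named snoRNAs sit in 33 different introns, 1 in each, and these introns are 175 to 2154 bases long with a median of 247. From the snoRNA's 3' end to the next exon the median distance was 77 bases, and 24 of 33 were at 60 to 90 bases. The exceptions included Snora9 in Snhg15, at 1595 bases, and the snoRNA entry named Mir1949 in Snhg4, at 1983 bases. The window of 60 to 90 bases was not planned. Distances were not computed for snoRNA genes outside these hosts, so the count is not particular to them.

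**Figure D4:**
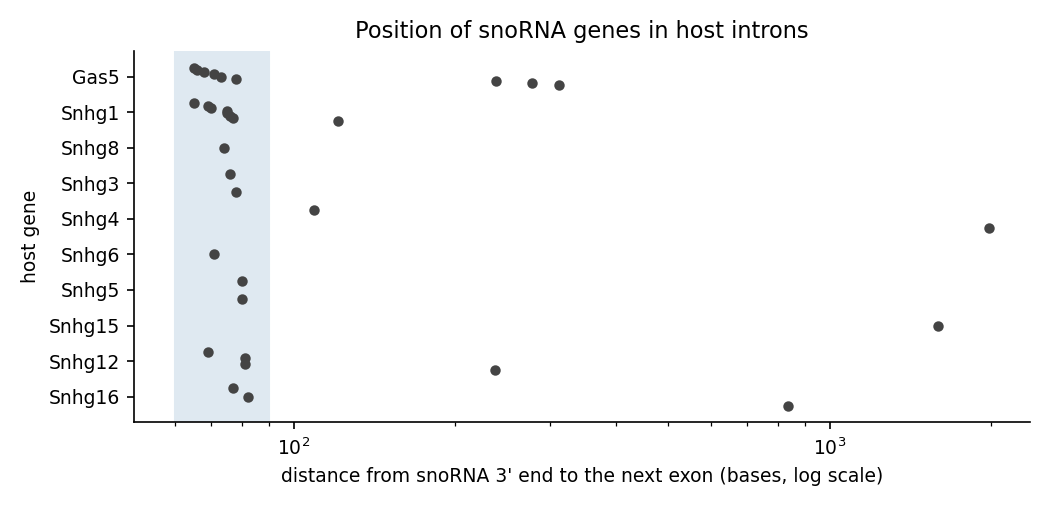
Distance (bases, log scale) from the 3' end of each of 33 hosted snoRNA genes to the next exon of its host, 1 point for each. Shading marks 60 to 90 bases, where 24 of 33 lie, including all 3 of the Snhg3 and Snhg8 snoRNAs. No distances were computed outside the hosts.

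Box C/D snoRNAs carry a C box near the 5' end and a D box near the 3' end, and box H/ACA snoRNAs an ACA shortly before the 3' end. On the snoRNA strand TGATGA was found in the first 15 bases of 13 of 33 (39.4%), CTGA in the last 10 bases of 15 (45.5%) and both in 9 (27.3%). Over all 1558 annotated snoRNA and scaRNA genes these shares were 20.3, 26.5 and 17.3%. ACA lay exactly 3 bases before the 3' end in 7 of 33 (21.2%) and in 19.3% of all. The match is by letters alone and some entries start or end away from the mature RNA, so a missing match says nothing of the class. A match does not fix the class either: the entry Mir5117 of Gas5, 84 bases long, has both TGATGA and the ACA. The next 4, from GENCODE M21 (GRCm38), show the usual short form with both boxes in capitals: an unnamed snoRNA of Gas5 (chr1), an unnamed snoRNA of Snhg1 (chr19) and the U50 pair of Snhg5 (chr9), which differ at 1 of 72 bases.
Gm22357: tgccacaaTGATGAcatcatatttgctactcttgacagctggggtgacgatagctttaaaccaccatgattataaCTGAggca
Gm22680: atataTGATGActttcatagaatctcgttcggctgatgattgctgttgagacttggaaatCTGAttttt
Snord50a: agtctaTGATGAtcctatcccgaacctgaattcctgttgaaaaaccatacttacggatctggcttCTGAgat
Snord50b: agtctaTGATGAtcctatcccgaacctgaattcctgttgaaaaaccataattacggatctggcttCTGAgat

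These short forms had no level of their own in the RSEM-layout tables. All 24 hosted snoRNA genes of up to 120 bases had 0 expected counts in both libraries, and their effective length in the tables, the number of positions a fragment could start from, was 0 in both. Over the whole annotation the 601 snoRNA and scaRNA genes of that size summed to 0 counts in replicate 1 and 2 counts in replicate 2. A 0 for them is a limit of how the tables were made and not a measured absence. Transcripts that keep the intron hold the same bases, so in these tables a fragment that spans a short snoRNA can be counted on such a host transcript but not on the snoRNA. The kallisto-layout tables gave estimated counts above 0 to 7 of the 24, the highest being Snord87 in Snhg6, with 11.0 in replicate 1 and 2.00 in replicate 2, and Gm22357 in Gas5, with 0 and 6.81. These 2 were named after their values were seen.

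Of the 11 hosted snoRNA genes above 120 bases, 6 reached 10 expected counts in either library, and 4.97% of the 946 such genes outside the hosts did. The 3 with the most counts, Snord22 (chr19) and the U17 pair (chr4), are given with their sequences from GENCODE M21 (GRCm38). For Snord22 the D box is in capitals, and for Snora73a and Snora73b the ACA. The last pair are 96.6% identical, with 7 differences over 205 bases, and reads they share are split by estimate, so the single values are uncertain.
Snord22: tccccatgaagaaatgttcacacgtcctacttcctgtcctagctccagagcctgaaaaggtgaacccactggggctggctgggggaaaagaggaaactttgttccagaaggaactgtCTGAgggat
Snora73a: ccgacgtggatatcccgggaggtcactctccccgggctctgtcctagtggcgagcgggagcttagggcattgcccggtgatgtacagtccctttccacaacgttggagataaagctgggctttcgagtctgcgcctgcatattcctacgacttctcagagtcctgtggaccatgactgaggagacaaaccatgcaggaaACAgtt
Snora73b: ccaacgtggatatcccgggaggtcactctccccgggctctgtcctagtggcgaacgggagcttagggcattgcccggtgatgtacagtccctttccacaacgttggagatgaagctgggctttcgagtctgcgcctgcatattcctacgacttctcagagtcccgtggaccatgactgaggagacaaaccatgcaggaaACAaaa

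Snord22, which takes part in ribosomal RNA processing (chromosome 19, 8725866 to 8725991, 126 bases), had 3.88 expected counts in replicate 1 (exact Poisson 95% interval of the rounded count 1.09 to 10.2) and 703 in replicate 2 (652 to 757). Snora73a (chromosome 4, 132352775 to 132352979), a U17 RNA of ribosomal RNA cleavage, had 42.0 (30.3 to 56.8) and 688 (638 to 741). Snora73b (chromosome 4, 132352322 to 132352526) had 44.1 (32.0 to 59.1) and 662 (613 to 714). Each was far higher in replicate 2, while the hosts Snhg1 and Snhg3 had slightly fewer counts there. Snora74a in Snhg4 had 24.1 and 350 counts, the entry Mir1949 3.87 and 30.7, and Snora44 in Snhg12 0 and 11.0. Summed, the hosted snoRNA genes went from 118 counts to 2452, 20.8 times as many, as the 10 hosts went from 2423 counts to 1972. The kallisto-layout tables gave the hosted snoRNA genes 254 and 2789 estimated counts, a smaller rise. There Snord22 had 23.4 and 854, the first above the interval given here. The size of the rise thus depends on the estimate. The 946 snoRNA and scaRNA genes of that size outside the hosts summed to 24777 and 35988 counts, 1.45 times as many.

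All 6 took a higher share of counts in replicate 2, and so did 95.7% of the 47 snoRNA and scaRNA genes of that size and count outside the hosts, with median log2 CPM ratios of 3.84 inside and 2.71 outside. Snord22, Mir1949 and Snora44 passed the minimum of 10 counts only through replicate 2, which fixed their direction. With at least 10 counts in replicate 1 instead, a limit chosen after seeing the data, all 3 remaining hosted genes and 25 of 27 outside the hosts had a higher share in replicate 2, with medians of 3.89 and 1.95. The gap between length and effective length of transcripts of at least 1000 bases, which follows fragment length, had a median of 221 bases in replicate 1 and 186 in replicate 2. The effective length of Snora73a and Snora73b rose with it from 19.4 to 38.7 bases, that of Snord22 from 0 to 1.90 and that of Snora44 from 0 to 2.43. The 0 counts of Snora44 in replicate 1 thus need not be a measured absence. The part of fragment length in these counts was not tested. It cannot be told apart from the starting amount.

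**Figure D5:**
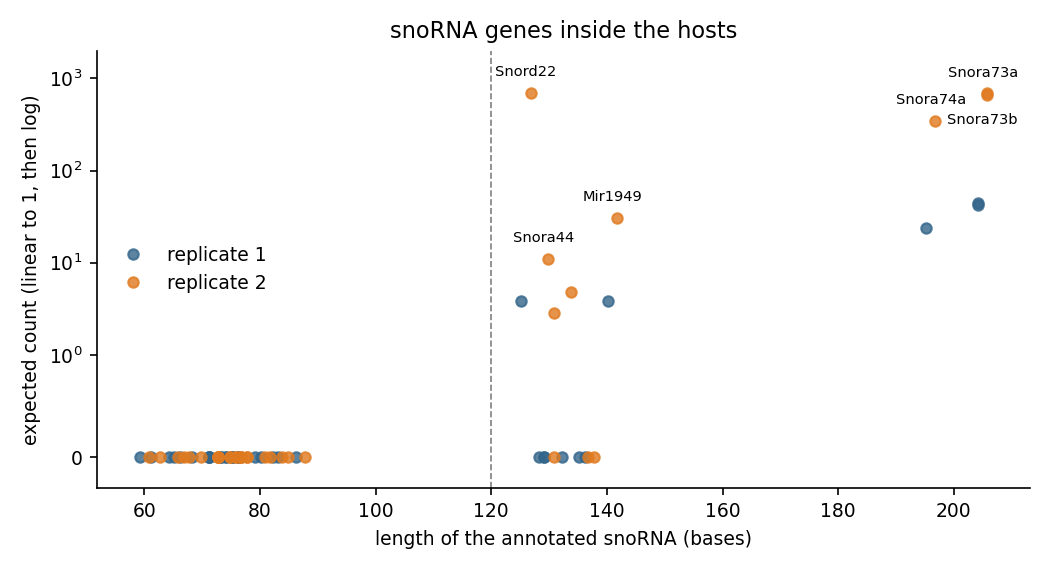
Expected counts (linear to 1, then log) of the 35 hosted snoRNA genes against their annotated length (bases), for replicates 1 and 2. The dashed line marks 120 bases. All 24 genes to its left are at 0, and to its right the highest, Snord22, Snora73a and Snora73b, lie above 600 in replicate 2 and below 50 in replicate 1.

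Transcripts whose exons contain the whole snoRNA could be set against transcripts that splice it out. At least 1 containing transcript is annotated for 32 of the 35 snoRNA genes, and none for those of Snhg3 and Snhg6. The median share of TPM on containing transcripts, of both kinds together, was 20.1% in replicate 1 and 19.8% in replicate 2. By expected counts it was 37.7 and 34.2%. These medians are over all 35 entries, so those of Snhg3 and Snhg6 enter as 0 and overlapping entries count separately. Over the introns of Snhg1 the median was 38.5 and 30.3% of TPM, and over those of Gas5 11.4 and 9.14%. For Gas5 the share for any 1 of its snoRNAs was at most 26.2 and 27.0%. It cannot be set against the retained-intron share, which sums all transcripts of that class over the whole gene. For Snora9 in Snhg15 the containing share was 36.1 and 36.8% of TPM, although none of that host's transcripts is classed as retained intron. All these shares leave out transcripts that neither contain the snoRNA nor splice it out.

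Promoter sequence from RefSeq (GRCm38.p6) was at hand for 8 of the 10 hosts, without Snhg4 and Snhg6. The motif TATANA on the gene's strand, within 40 to 20 bases before the start site, was found in 3 of these 8 (37.5%), and in 2.79% of 32851 promoters. A run of at least 5 C or T that begins with C, between 5 bases before and 20 after the start, was found in 6 of 8 (75.0%) and in 29.9% of all. Host gene transcripts are known to start with such a pyrimidine tract, as mRNAs of ribosomal proteins do. Both motifs were chosen after these sequences had been seen, and they are a description. The 3 promoters with the TATA motif, in capitals, are shown from 45 bases before to 30 after the start, to show where it lies. The 3 were picked for the motif, and the other 5 hosts have no full match in this window. In Snhg5 TATAAA starts inside the window but runs past its end, so it was not counted. The start site used lies 932 bases from the start of the leading transcript not classed as retained intron for Snhg5, and 68 for Snhg8. For Snhg5 that transcript is Snhg5-203, which does not lead in the kallisto-layout tables. The 3 shown are Gas5 at chr1:161035121-161035195 (plus strand), Snhg8 at chr3:123508307-123508381 (minus strand) and Snhg12 at chr4:132308633-132308707 (plus strand).
Gas5: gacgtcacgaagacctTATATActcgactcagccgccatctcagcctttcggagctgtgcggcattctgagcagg
Snhg8: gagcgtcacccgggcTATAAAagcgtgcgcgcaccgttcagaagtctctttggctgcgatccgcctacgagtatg
Snhg12: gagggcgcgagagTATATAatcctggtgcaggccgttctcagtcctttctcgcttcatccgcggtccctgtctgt

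Other genes of the pathway were measured from lists of known function. Of 11 other noncoding hosts listed, 10 were found by name and 5 were above 1 TPM in both libraries. Zfas1, a host of box C/D snoRNAs, led with 42.7 and 75.9 TPM. By mean TPM it lay below Gas5 and above the other 9 hosts described here, but in replicate 2 it exceeded Gas5 (63.4 TPM). Snhg20 had 25.0 and 20.2 TPM. Past 2-fold was 1 of the 6 detected, beside 9.41% of all detected genes. It was Snhg14, lower at 13.2 and 5.67 TPM and named after its values were seen. Relative to the median gene Snhg14 was at -0.94, and Zfas1 was past 2-fold higher at 1.10. On that scale 7.30% of detected genes were past 2-fold in either direction. Of 279 protein-coding genes with a snoRNA gene inside, 212 were above 1 TPM in both, with medians of 13.1 and 10.3 TPM beside 11.5 and 8.36 TPM for the 10 noncoding hosts. Cep85, a centrosomal protein gene, had 400 and 238 TPM, and Hspa8, the constitutive HSP70 chaperone gene, 289 and 254 TPM.

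Of the snoRNP core proteins 7 of 8 were above 1 TPM in both libraries, the exception being Nop10 at 2.15 and 1.00 TPM. Nop56, a scaffold of the box C/D complex, led with 33.4 and 24.4 TPM, and Snu13, which binds the box C/D motif, had 17.1 and 7.46 TPM. Past 2-fold lower in replicate 2 were 3 of 8, beside 7.26% of detected genes: Snu13, and Gar1 and Nop10 of the box H/ACA complex, the last 2 named after their values were seen. Relative to the median detected gene only Gar1 was past 2-fold, at -1.55, with Snu13 at -0.92 and Nop10 at -0.76. On that scale 7.30% of detected genes were past 2-fold in either direction. Gar1 had 15.7 and 4.37 TPM from 76 and 35 counts. All 10 assembly factors were above 1 TPM, with Pih1d1 at 7.12 and 7.15 TPM and Ruvbl1 at 5.82 and 3.37 TPM. None was past 2-fold as the ratios stood, beside 9.41% of detected genes. Relative to the median gene Shq1, named after its values were seen, was past 2-fold at 1.21, from 64 and 65 counts. The share of detected genes past 2-fold on that scale was the same 7.30%.

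All 14 factors of nonsense-mediated decay were above 1 TPM, with none past 2-fold on either scale and list medians of 14.4 and 11.3 TPM. Of detected genes 9.41% were past 2-fold as the ratios stood, and 7.30% relative to the median gene. The kinase gene Smg1 had 104 and 69.5 TPM and Smg5 25.1 and 22.9 TPM. All 6 factors of intron and RNA turnover were above 1 TPM, led by the nuclear and cytoplasmic 5' exonuclease genes Xrn2 (42.5 and 36.5 TPM) and Xrn1 (34.4 and 32.1 TPM). Past 2-fold was 1 of these 6, beside the same 9.41% of detected genes. It was the exosome nuclease gene Dis3, at 5.19 and 2.50 TPM, named after its values were seen. Relative to the median gene Dis3 was at -0.76 and none of the 6 was past 2-fold. Dbr1, which opens the intron lariats that snoRNAs are trimmed from, had 2.89 and 2.78 TPM, the lowest mean of that list, and was likewise named after the fact.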

How the data were processed

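RNA of the nucleoplasm was depleted of ribosomal RNA and size-selected (250 to 400, no unit stated), per the labels. For each of the 2 libraries 3 tables were used. The deposited expected counts and TPM per gene and per transcript rest on mm10 and GENCODE M21, per the deposited file notes, with posterior mean TPM and its interval bounds, per the file headers. The remaining deposited table lists estimated counts with TPM for each transcript, obtained straight from the reads. Their columns have the layouts that RSEM and kallisto write. Neither program names nor strand setting are given in the sources used here. For TPM the divisor is an effective length, near 0 for RNAs shorter than the fragments, so snoRNAs are given as counts.

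Names, biotypes, positions and snoRNA sequences came from GENCODE M21, and synonyms and promoters from RefSeq. Genes were detected at 10 expected counts or more in both libraries. Ratios used log2(TPM + 0.1), which understates changes of low genes, and called means past 2-fold. There is 1 group of 2 libraries, so no test was made. The text names all 10 hosts, the 2 highest genes of each other list, host transcripts with at least 10% of a gene's TPM in either library where a sentence turns on them, and hosted snoRNAs with at least 10 counts in either. The members and lists were chosen with earlier results of these data known. Normalisation alternatives used edgeR 4.0.16 (TMM) and DESeq2 1.42.0 in R 4.3.3, with expected counts first rounded to integers. Other steps used Python 3.11.15, pandas 2.3.3 and numpy 2.4.6. The log2 ratios, with both normalisations, and the calculation of the retained-intron share were tested on simulated data. The remaining steps were not. Intervals cover counting error only, and sequencing reads without molecular identifiers are not independent molecules.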

Additional observations from a re-analysis of the deposited data

How the results depend on the processing

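The summed host level of 175 TPM (mean of 2 libraries) was 70.4 TPM in the kallisto-layout tables, 519 when TPM was rescaled to protein-coding and long noncoding genes, and 110 CPM with either TMM or DESeq2 factors (110.2 in each). It was 149 and 201 TPM with 1 replicate left out. The median log2 ratio of the hosts (-0.29) was -2.31 in the kallisto-layout tables, where the median detected gene was at -2.13. It was -0.20 on rescaled TPM, -0.060 on TMM-normalised CPM, -0.062 on DESeq2 factors and -0.023 relative to the median gene. The 1 host past 2-fold became 10 in the kallisto-layout tables, 0 with TMM, 0 with DESeq2 factors and 0 relative to the median gene. In the kallisto-layout tables the median detected gene was itself past 2-fold, so the 10 say nothing particular of the hosts. The share of detected genes past 2-fold was not computed there, with TMM or with DESeq2 factors. The 1374 genes past 2-fold became 2650 with counts above 0 in both libraries and 488 with at least 100, which changes the genes tested.

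The median retained-intron share of the hosts (53.6%) was 74.0% of expected counts, 46.9% of kallisto-layout TPM and 65.9% of kallisto-layout counts, and 51.9 to 55.3% with 1 replicate left out. That of all genes (25.7%) was 14.9, 31.0 and 19.3% in the same order and 26.6% by posterior mean TPM, and 25.1 to 26.3% with 1 replicate left out. The median share on transcripts containing a hosted snoRNA (20.0%) was 36.0% of counts and 17.1% of kallisto-layout TPM, chosen after seeing the data, as was the ratio relative to the median gene. Hosts above 50% numbered 3, and 2 to 4 under the alternatives. The hosted snoRNAs with at least 10 counts were 6, 7 by kallisto-layout counts, and 3 to 6 with 1 replicate left out. The summed count of all hosted snoRNAs (1285 on average) was 1521.5 by kallisto-layout counts. With 1 replicate left out it was 118 to 2452, so replicate 2 decides it. Causes other than those stated were not tested. No paired analysis was possible because there is only 1 group. Limits are the 2 libraries, counts below 150 for most hosts, and shares of a few counts on single transcripts.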
